A study of Mus musculus with 4 samples.

Results

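The 10 genes described here encode secreted acute-phase plasma proteins of the liver: the serum amyloid A genes Saa1, Saa2, Saa3 and Saa4, the orosomucoid genes Orm1, Orm2 and Orm3, haptoglobin (Hp), serum amyloid P component (Apcs) and the inter-alpha-trypsin inhibitor heavy chain gene Itih4. They were chosen by gene symbol from the 22155 genes of the count table, with earlier results of these data known. All 10 were found there and passed the filter on low counts. Messenger RNA was sequenced from whole liver of adult wild-type C57BL/6 mice aged 8 to 10 weeks. All mice drank a Lieber-DeCarli liquid diet with 5% ethanol for 10 days, so the comparison group was itself ethanol-fed. The ethanol + gavage group (2 libraries) was also given ethanol at 5 g per kg body weight through a stomach tube, and its livers were taken 9 h later. The ethanol alone group (2 libraries) had the diet only. The comparison asks what a binge adds to the expression of these genes in liver already exposed to ethanol. The sources used here do not give the sex of the mice, a control gavage or the time of killing without a binge. They also do not say that each library is its own animal, and the p-values then cover the spread of these samples alone, which may be technical.

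The acute phase is the change in the plasma proteins made by the liver during inflammation or injury. Interleukin 6 acts on hepatocytes through its receptor and the transcription factor STAT3, and interleukin 1 and tumour necrosis factor act through NF-kB and C/EBP factors. Serum amyloid A proteins travel on high-density lipoprotein, orosomucoids bind small lipophilic molecules, and haptoglobin captures free haemoglobin for clearance by the macrophage receptor CD163. In the mouse, Saa1, Saa2 and Apcs are known as strongly inducible, while Saa4 is known as constitutive and Saa3 is known for expression outside hepatocytes, in macrophages and adipose tissue.

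The total counts ran from 28791281 to 30347558 per library. Levels are given as CPM, the usual count relative to sequencing depth, with library sizes adjusted for composition, and fold changes as gavage over ethanol alone. In lists of 4 values, the libraries run as replicates 1 and 2 of ethanol alone and then replicates 1 and 2 of the gavage group. The 7 hepatocyte markers summed to 138652, 128587, 100983 and 127899 CPM, none of them at 0, so the liver label held. Some libraries also carried RNA of other cells. Replicate 1 of ethanol alone held 968 CPM over 6 markers of exocrine pancreas, against 4.46 to 8.26 CPM elsewhere. The 6 markers of adipocytes summed to 40.8, 2.31, 46.9 and 1.43 CPM, so that they were high in replicate 1 of each group and Plin1, Cfd and Lep were at 0 in replicate 2 of each. The 6 mesothelial markers summed to 13.3, 3.34, 8.22 and 2.96 CPM. The 10 neutrophil markers summed to 4.98, 4.56, 18.5 and 6.71 CPM, with 6 of them highest in replicate 1 of the gavage group. S100a9 alone stood at 7.93 CPM in that library, while Ly6g, Mpo and Camp were at 0 there. Each of the other libraries had 2 of these markers at 0, and Ly6g was at 0 in both libraries of ethanol alone. The 10 markers of Kupffer cells, the resident macrophages, and of macrophages in general summed to less after the gavage, at 699, 678, 397 and 443 CPM, with none at 0. In bulk liver, fewer cells of a type and less RNA per cell cannot be told apart.

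Taken as a group, 8 of the 10 genes stood higher in both gavage libraries than in both libraries of ethanol alone, and the other 2, Saa3 and Saa4, overlapped. Such a gap with the gavage group on top was found for 27.5% of all 13309 tested genes. None of the 10 had the gavage group below without overlap, as 27.2% of all tested genes had. Counting by sign alone, 9 of the 10 were higher, against 51.7% of all tested genes. Among the 8 genes without overlap the fold ran from 1.82 for Orm1 to 94.1 for Saa2, while Saa3 had a fold of 1.06 and Saa4 one of 0.947. The 10 genes together made up 0.536% and 0.55% of all counts with ethanol alone and 1.65% and 1% with the gavage. Their median log2 fold change was 1.01, against 0.02 over all tested genes. In the quasi-likelihood test of edgeR, adjusted by Benjamini-Hochberg over all genes, none of the 10 was called, and neither was any other gene (0% of those tested). At an unadjusted p under 0.05 in that test, 8 of the 10 were higher and 0 lower, where 8.91% of all tested genes were higher by the same rule. DESeq2 called the same 8 genes as higher (3.93% of all tested genes), edgeR's likelihood-ratio test called 3 of the 10 (2.14%), and limma-voom called 0 (0%). With the replicate number as a block, the quasi-likelihood test called 3 of the 10, where it called 1.79% of all tested genes as higher. The labels do not say that these numbers pair animals. With 2 libraries against 2, an exact permutation test of 1 gene, 2-sided, cannot give a p below 0.333.

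**Figure D1:**
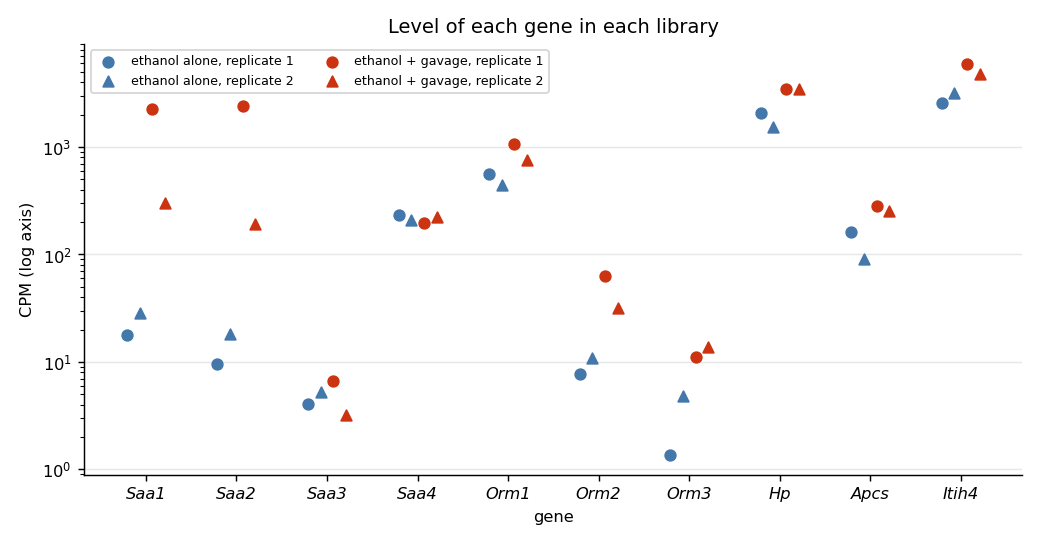
CPM on a log axis of each of the 10 genes in each of the 4 libraries, with ethanol alone in blue and ethanol + gavage in red, circles for replicate 1 and triangles for replicate 2. Saa1 and Saa2 lay between 191 and 2424 CPM in the gavage libraries and at 28.7 CPM or less in the others, while the symbols of Saa3 and Saa4 overlap between groups.

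Saa1 and Saa2, the inducible serum amyloid A genes, showed the largest differences of the 10 genes. Saa1 (chromosome 7, 46740497 to 46742980, minus strand, in GRCm38) had 17.6, 28.7, 2243 and 304 CPM. Saa2 (chromosome 7, 46751790 to 46754313, plus strand) had 9.63, 18.1, 2424 and 191 CPM. For each gene the lower gavage library stood more than 10-fold above the higher library of ethanol alone, by 10.6-fold. The log2 fold change of Saa1 was 5.78 (SE 1.09, edgeR quasi-likelihood adjusted p = 0.134), and 8 of the 13309 tested genes had a larger one. A log2 fold change above 5 was found for 0.0902% of all tested genes. The log2 fold change of Saa2 was 6.56 (SE 1.38, adjusted p = 0.146 in the same test). DESeq2 gave adjusted p-values of 3.34e-05 and 4.35e-04.

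The 2 gavage libraries agreed on the direction for Saa1 and Saa2 but not on the size. Saa1 was 7.37-fold and Saa2 12.7-fold higher in replicate 1 than in replicate 2 of that group. Ratios at least that far from 1 between the same libraries were rare, since only 1.43% of the genes with a count in every library exceeded that of Saa1 and 0.985% that of Saa2. Within ethanol alone the order of the replicates was the opposite, with replicate 2 higher by 1.63-fold for Saa1 and 1.88-fold for Saa2. Without replicate 1 of the gavage group the log2 fold change of Saa1 was 3.72, a fold of 13.1 (adjusted p = 0.134 in edgeR's quasi-likelihood test). Without replicate 2 of that group it was 6.59, a fold of 96.3 (adjusted p = 0.0196), in a fit that called 0.221% of all genes as higher. With a library left out, the lone library of its group is assumed to vary like the other group. Saa2 moved alike, from 3.78 (adjusted p = 0.156) to 7.44 (adjusted p = 0.0196) when the same libraries were left out. Leaving out replicate 1 of ethanol alone ended the DESeq2 calls of both genes. The DESeq2 log2 fold change was then 5.47 for Saa1 (adjusted p = 0.097) and 6.17 for Saa2 (adjusted p = 0.0935). The library with the most Saa1 and Saa2 was also the one with the most neutrophil marker RNA, as given above, and the part of that in these values was not tested.

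**Figure D2:**
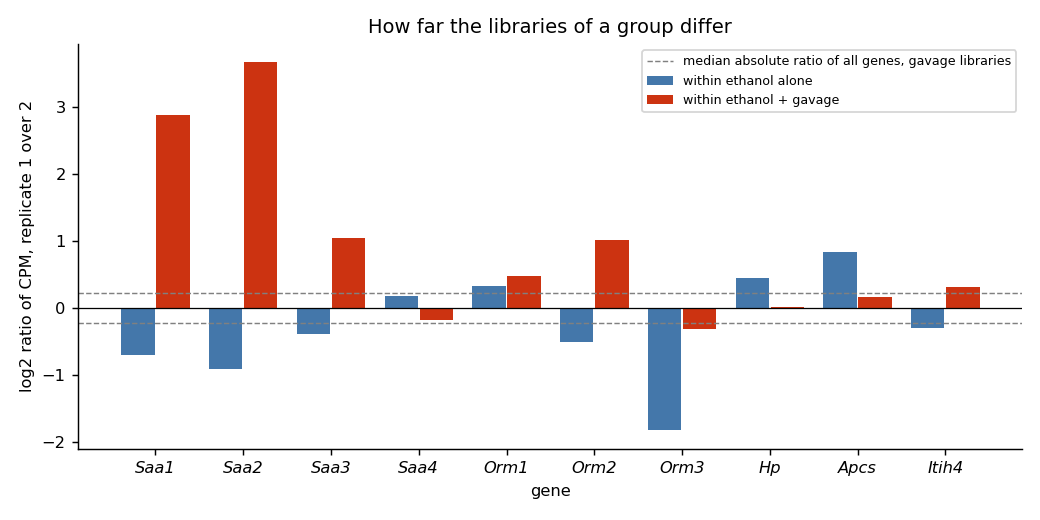
Log2 ratio of CPM in replicate 1 over replicate 2 within ethanol alone (blue bars) and within ethanol + gavage (red bars) for the 10 genes, with dashed lines at the median absolute ratio of all genes in the gavage libraries, 0.22. The gavage bars reach 2.88 for Saa1 and 3.66 for Saa2 and lie at 0.02 for Hp.

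Saa1 and Saa2 are near-identical copies, and the counting could have split or dropped reads that fit both. The coding sequences, each of 366 bases without the stop codon, differed at 18 positions and were identical at 95.1%. The longest run of coding bases without a difference was 73. The stretch of 150 bases that holds the most differences, coding bases 40 to 189, is shown because coding reads of the copies can be told apart only at such positions. It holds 12 of the 18, marked in capitals, from the annotated GENCODE transcripts of GRCm38:
Saa1: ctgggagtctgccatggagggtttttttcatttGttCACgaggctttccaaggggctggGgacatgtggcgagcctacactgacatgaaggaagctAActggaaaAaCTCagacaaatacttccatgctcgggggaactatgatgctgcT
Saa2: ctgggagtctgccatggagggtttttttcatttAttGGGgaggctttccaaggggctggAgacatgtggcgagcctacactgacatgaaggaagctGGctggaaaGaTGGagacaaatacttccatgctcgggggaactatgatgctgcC
Of the 50-base words of the main transcript, 14.8% of those of Saa1 and 13.3% of those of Saa2 also occurred in another of the 10 genes. The sources used here do not give the read length or the treatment of reads that fit several places. The summed counts of both copies do not depend on how reads were split between them. The sum stood at 27.3, 46.8, 4667 and 496 CPM, with a log2 fold change of 6.12 (SE 1.22, edgeR adjusted p = 0.139).

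The proportion of the copies was not the same in every library. Saa2 made up 35.3% of the summed counts in replicate 1 of ethanol alone (95% Wilson interval 32% to 38.8%), 38.7% in replicate 2 (36.2% to 41.3%) and 38.6% in replicate 2 of the gavage group (37.8% to 39.4%). In replicate 1 of the gavage group it made up 51.9% (51.7% to 52.2%), outside the intervals of the other libraries. These intervals cover counting error only.

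The stretches before the transcription starts of Saa1 and Saa2 are alike as well. The 250 bases upstream of the RefSeq starts were 94.8% identical between them in an alignment of 251 columns, while Saa1 shared 48.2% with Saa3 and 42.3% with Saa4. They are shown because these genes lie in 1 cluster on chromosome 7 and 2 of them stood higher together while Saa4 did not. The sequences are from RefSeq in GRCm38.p6, and distances here are counted from its starts. The RefSeq start of Saa2 is that of its main GENCODE transcript, but another GENCODE transcript begins earlier, so that 43 bases of the window lie inside the gene as given above. For Saa3, 24 bases of the window lie inside the GENCODE gene, and the RefSeq starts of Apcs and Orm3 lie 13 and 4 bases before the GENCODE ones. In these windows capitals mark the letters TTGCNNAA on either strand, a form of the C/EBP motif:
Saa1, chr7:46742981-46743230, minus strand: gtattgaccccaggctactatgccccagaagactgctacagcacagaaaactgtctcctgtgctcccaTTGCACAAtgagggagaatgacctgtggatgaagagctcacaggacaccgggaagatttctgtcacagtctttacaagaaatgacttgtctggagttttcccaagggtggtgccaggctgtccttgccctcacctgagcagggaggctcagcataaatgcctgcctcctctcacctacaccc
Saa2, chr7:46751583-46751832, plus strand: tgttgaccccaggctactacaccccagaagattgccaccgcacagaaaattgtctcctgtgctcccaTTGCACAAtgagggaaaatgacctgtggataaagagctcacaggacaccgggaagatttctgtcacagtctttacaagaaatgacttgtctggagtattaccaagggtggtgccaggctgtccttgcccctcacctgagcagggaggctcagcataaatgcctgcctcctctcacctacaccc
Saa4, chr7:46732604-46732853, minus strand: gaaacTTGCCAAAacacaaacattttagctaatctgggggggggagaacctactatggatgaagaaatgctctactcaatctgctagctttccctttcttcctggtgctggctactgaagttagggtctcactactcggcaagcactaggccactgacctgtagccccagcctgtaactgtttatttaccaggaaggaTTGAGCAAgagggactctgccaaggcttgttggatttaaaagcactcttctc
Saa1 held 1 match, from 182 to 175 bases before the start, and Saa2 held 1 match, from 183 to 176 bases before it. Saa4 held 2 matches, and Saa3 held 1 match (99 to 92 bases before the start). Those letters occurred in 9.56% of all 32851 promoters of that length. A loose form of the NF-kB motif, present in 15.2% of promoters, matched once in Saa1, from 91 to 82 bases before the start, and was not found in the other 7 windows searched. A match of letters is a description of the sequence and not a site of binding.

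Saa4, the constitutive member, showed no detectable difference, with 234, 207, 196 and 222 CPM (chromosome 7, 46727998 to 46732603, minus strand). Its groups overlapped, and the log2 fold change was -0.08 (SE 0.21, edgeR quasi-likelihood adjusted p = 0.871). Saa3 (chromosome 7, 46711998 to 46715700, minus strand) was low in all libraries, with 4.03, 5.25, 6.62 and 3.22 CPM from counts of 110, 159, 208 and 97. Its highest and its lowest value both came from the gavage group, and the log2 fold change was 0.09 (SE 0.40, adjusted p = 0.929 in the same test). Without replicate 1 of the gavage group the sign turned, at -0.52. Between the gavage libraries Saa3 differed by 2.06-fold, and 7.48% of all genes differed by more. Only 1.78% of its 50-base words also occurred in another of the 10 genes.

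**Figure D3:**
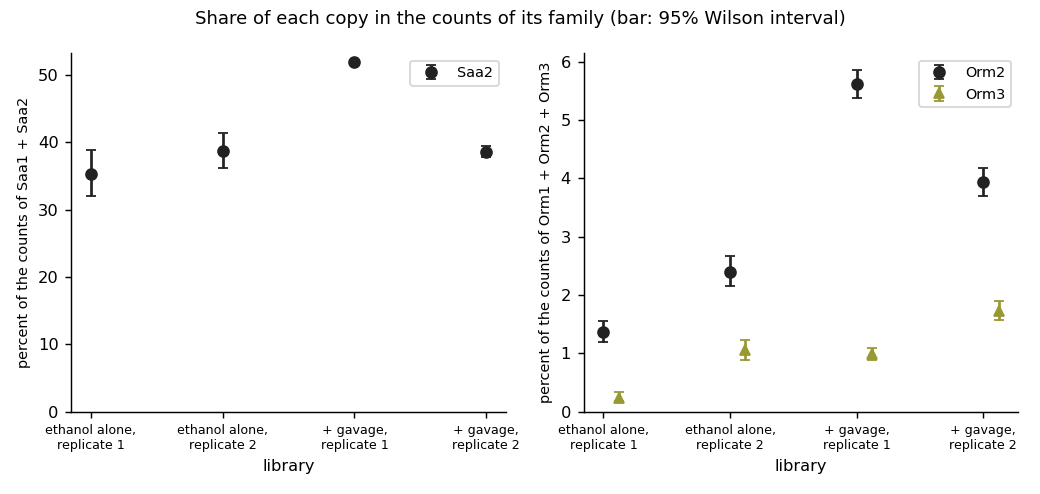
Left, the share of Saa2 in the summed counts of Saa1 and Saa2, and right, the shares of Orm2 and Orm3 in the summed counts of the Orm genes, in percent for each library, with 95% Wilson intervals as bars. Replicate 1 of the gavage group stands apart on the left at 51.9%, and Orm2 is higher in both gavage libraries than in both libraries of ethanol alone on the right.

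The orosomucoids, also called alpha-1-acid glycoproteins, are plasma lipocalins that carry lipophilic molecules and drugs. Orm1 had by far the highest level of the 3, also per length, and the smallest fold change. Orm1 (chromosome 4, 63344560 to 63348163, plus strand) had 556, 441, 1057 and 756 CPM, a log2 fold change of 0.86 (SE 0.28, edgeR quasi-likelihood adjusted p = 0.223). Orm2 (chromosome 4, 63362449 to 63365878, plus strand) had 7.69, 10.9, 63.5 and 31.5 CPM. Its log2 fold change was 2.35 (SE 0.40, adjusted p = 0.133 in the same test, DESeq2 adjusted p = 1.45e-06). Orm3 (chromosome 4, 63356162 to 63359511, plus strand) had 1.35, 4.79, 11.1 and 13.8 CPM. The gavage libraries were the higher ones for all 3 genes, without overlap. The spread lay in different groups: Orm2 was 2.02-fold higher in replicate 1 than in replicate 2 of the gavage group, while Orm3 was 3.54-fold higher in replicate 2 than in replicate 1 of ethanol alone. Orm3 therefore had a log2 fold change of 2.01 with all libraries (adjusted p = 0.2), of 1.35 without replicate 1 and of 3.14 without replicate 2 of ethanol alone. The fold of Orm2 was 5.1 with all libraries and 3.38 (adjusted p = 0.304) when replicate 1 of the gavage group was left out. DESeq2 called Orm2 without any 1 of the 4 libraries. Its call of Orm1 was lost without replicate 2 of ethanol alone or either gavage library, at log2 fold changes from 0.60 to 1.06. Its call of Orm3 was lost without replicate 1 of ethanol alone or either gavage library, at 1.37 to 2.16.

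The Orm genes share sequence too. The coding sequences of Orm1 and Orm2 were 89.9% identical, those of Orm2 and Orm3 87.9% and those of Orm1 and Orm3 86%. Of the 50-base words, 20.4% of Orm1, 21.8% of Orm2 and 3.59% of Orm3 also occurred in another of the 10 genes. With 100-base words the share was 6.95% for Orm1 and for Orm2 and 0% for Orm3. Orm1 had 93.4% to 98.4% of the summed counts in each library. Reads of it counted to Orm2 or Orm3 were not tested for. The share of Orm2 in the summed counts was 1.36%, 2.4%, 5.62% and 3.93% over the 4 libraries and that of Orm3 was 0.24%, 1.05%, 0.982% and 1.72%. Orm2 thus made up more of the sum in each gavage library than in each library of ethanol alone, while for Orm3 the groups overlapped. The summed counts stood at 565, 456, 1131 and 801 CPM, a log2 fold change of 0.92 (SE 0.28, edgeR adjusted p = 0.208).

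The 250 bases before the starts of Orm2 and Orm3 were 85.5% identical, and each held 1 match of TTGCNNAA, from 120 to 113 bases before the start in Orm2 and from 121 to 114 bases in Orm3. They are shown as the Orm genes with a window in the table used, which held none for Orm1 and Hp, with the same motif in capitals:
Orm2, chr4:63362199-63362448, plus strand: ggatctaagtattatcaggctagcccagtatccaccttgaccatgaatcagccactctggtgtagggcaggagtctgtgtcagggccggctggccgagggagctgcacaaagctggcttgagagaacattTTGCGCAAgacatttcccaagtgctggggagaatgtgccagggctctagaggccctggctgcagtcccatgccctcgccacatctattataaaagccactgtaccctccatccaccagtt
Orm3, chr4:63355908-63356157, plus strand: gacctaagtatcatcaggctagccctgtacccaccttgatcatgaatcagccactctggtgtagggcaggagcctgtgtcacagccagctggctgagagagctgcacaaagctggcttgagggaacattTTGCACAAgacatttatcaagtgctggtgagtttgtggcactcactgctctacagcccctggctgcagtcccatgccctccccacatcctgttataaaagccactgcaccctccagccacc
The STAT motif TTCNNNGAA, present in 7.02% of all promoters, was found in neither window, nor in those of the Saa genes. It matched once before Apcs and once before Itih4. The glucocorticoid receptor half-site TGTTCT, present in 16.1% of promoters, matched once before Orm2 and once before Apcs.

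Haptoglobin was the gene on which the gavage libraries agreed best. Hp (chromosome 8, 109575128 to 109579172, minus strand) had 2088, 1533, 3494 and 3439.7 CPM, and its gavage libraries differed by 1.02-fold. A larger ratio between those libraries was found for 93.9% of all genes. Its groups did not overlap, and the log2 fold change was 0.94 (SE 0.27, edgeR quasi-likelihood adjusted p = 0.198, DESeq2 adjusted p = 0.00293). None of the 50-base words of Hp, Apcs or Itih4 occurred in another of the 10 genes, and no annotated gene overlapped any of the 10 on either strand. The DESeq2 call of Hp was lost without either gavage library, while its log2 fold change stood at 0.93 and 0.92 there, against 0.93 with all libraries.

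Serum amyloid P component is a pentraxin, a ring-shaped plasma protein that binds amyloid fibrils and chromatin. Apcs (chromosome 1, 172893961 to 172895041, minus strand) had 161, 90.1, 283 and 252 CPM. The gavage libraries lay close together, and the libraries of ethanol alone differed by 1.79-fold. The log2 fold change was 1.09 (SE 0.33, edgeR quasi-likelihood adjusted p = 0.206), running from 0.68 without replicate 2 to 1.55 without replicate 1 of ethanol alone. Itih4, which belongs to a family of heavy chains that bind hyaluronan, had the highest CPM of the 10 genes in all 4 libraries, a scale that does not allow for its longer transcript. Itih4 (chromosome 14, 30886476 to 30902353, plus strand) had 2574, 3175, 5979 and 4789.9 CPM, a log2 fold change of 0.91 (SE 0.27, edgeR adjusted p = 0.204). Both of its gavage libraries stood above both of ethanol alone. DESeq2 gave adjusted p-values of 0.0156 for Apcs and 0.00376 for Itih4. Its call of Apcs was lost without either gavage library, at log2 fold changes of 1.01 and 1.15. Its call of Itih4 was lost without either gavage library or replicate 1 of ethanol alone, at log2 fold changes from 0.74 to 1.03.

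**Figure D4:**
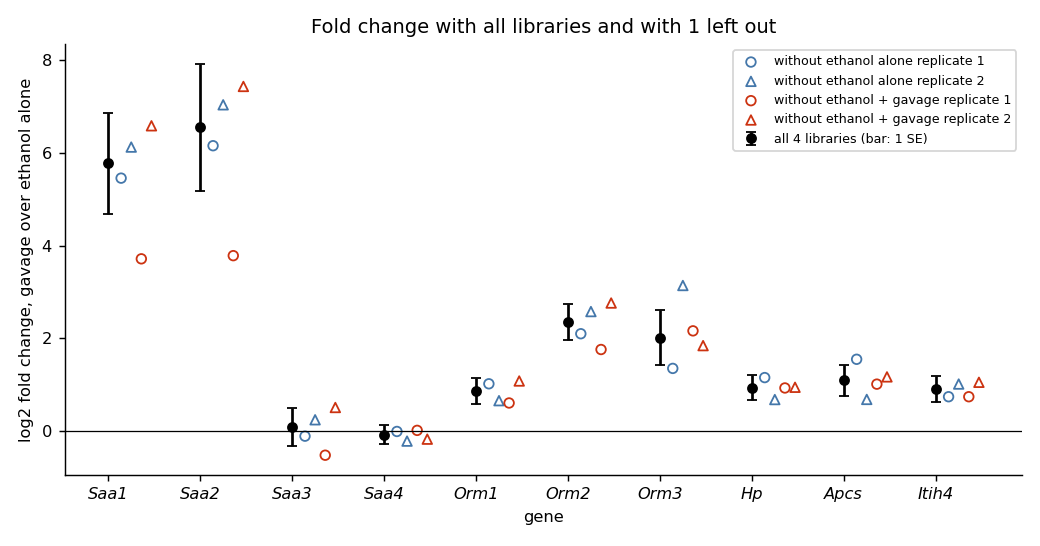
Log2 fold change of each gene, gavage over ethanol alone, with all 4 libraries (black, bar 1 SE) and with each library left out in turn (open symbols). Saa1 and Saa2 fall to 3.72 and 3.78 without replicate 1 of the gavage group, Saa3 and Saa4 lie on either side of 0, and the other 6 genes stay between 0.60 and 3.14.

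Across the 10 genes, 8 were higher in replicate 1 than in replicate 2 of the gavage group and 6 differed by less than 1.5-fold between them. The median absolute log2 ratio of those libraries was 0.40 for the 10 genes and 0.22 for all 13198 tested genes with a count in every library. Within ethanol alone the same medians were 0.48 and 0.32. The genes that differed between the gavage libraries by 2-fold or more were Saa1, Saa2, Saa3 and Orm2.

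Levels can be compared between genes only per length. Per kb of the main transcript, the order with ethanol alone was Hp (1346 ± 292 CPM per kb, SD, n = 2), Itih4 (814 ± 120), Orm1 (643 ± 105), Apcs (129 ± 51.7), Saa4 (105 ± 9.26), Saa1 (38 ± 12.8), Saa2 (22.9 ± 9.93), Orm2 (12 ± 2.96), Saa3 (8.36 ± 1.56) and Orm3 (3.97 ± 3.14). Neighbours whose libraries overlapped in that order were Apcs with Saa4 and Saa1 with Saa2. After the gavage the order began with Hp (2578 ± 28.4), Saa2 (2158 ± 2605), Saa1 (2091 ± 2251), Itih4 (1525 ± 238) and Orm1 (1169.6 ± 274). The places of Saa1 and Saa2 in it were not fixed, because they stood at 3683 and 3999.98 CPM per kb in replicate 1, above Hp, and at 499.7 and 316 CPM per kb in replicate 2, below Orm1. Itih4 and Orm1 overlapped too, at 1693 and 1357 against 1363 and 976 CPM per kb in replicates 1 and 2 of the gavage group. Apcs (276 ± 22.2), Saa4 (99.9 ± 8.9), Orm2 (61.3 ± 29.2), Orm3 (16.1 ± 2.44) and Saa3 (8.87 ± 4.33) followed without overlap of neighbours.

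The genes whose pattern over the 4 libraries lay closest to that of Saa1 were found by the Euclidean distance of log2 CPM centred on each gene's mean, among 11649 genes with a mean of at least 1 CPM. Saa2 lay at a distance of 0.753. The nearest genes outside the 10 were Ttc25 (1.32), Pkp1 (1.33) and Hormad2 (1.62). These 3 stood at 0.463 CPM or less with ethanol alone, so their distances rest on few counts. Orm2, the next of the 10, lay at 3.2. The pattern of Hp was closest to Ggt5 (0.0304), Cd3eap (0.0632) and Ammecr1 (0.116), and among the 10 genes to Orm1 (0.35) and Apcs (0.354).

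Other acute-phase proteins were compared from a list of 20 genes, of which 19 were tested and A2m was not. Of these, 15 were higher and 4 lower, where 51.7% of all tested genes were higher. The median log2 fold change was 0.72, and edgeR's quasi-likelihood test called 0. Its unadjusted p was under 0.05 for 10 higher and 3 lower genes, against 8.91% and 9.85% of all tested genes. DESeq2 called 9 higher and 2 lower, against 3.93% and 4.94% of all tested genes. Lcn2, the iron-sequestering lipocalin 2, had a log2 fold change of 5.34, close in size to Saa1, but its gavage libraries differed little, at 395 and 434 CPM, with replicate 2 the higher. Mt2, a metallothionein, had one of 3.86 and Fga, a fibrinogen chain, one of 1.28. C3, the central complement protein, had a log2 fold change of 0.11. Crp, a pentraxin like Apcs, lay the other way from it, at 216 ± 63.8 against 502 ± 1.58 CPM (log2 fold change -1.22, edgeR adjusted p = 0.158). So did Mbl2, a mannose-binding lectin, at -1.13.

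Among 10 plasma proteins known to fall in the acute phase, 1 was higher and 9 were lower. By sign, 51.7% of all tested genes were higher. The median log2 fold change of the list was -0.54. That median was -0.16 without replicate 1 and -0.87 without replicate 2 of ethanol alone. The quasi-likelihood test called 0. Its unadjusted p was under 0.05 for 3 genes, all lower, where 9.85% of all tested genes were lower by that rule. DESeq2 called 1 gene higher and 3 lower, against 3.93% and 4.94% of all tested genes. Serpina6, the corticosteroid-binding globulin, had a log2 fold change of -1.39, Ttr, transthyretin, one of -0.90 and Alb, albumin, one of -0.21. Ahsg, fetuin A, was the 1 that stood higher, at 0.62.

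Cytokines, receptors and transcription factors of the acute phase formed a list of 23 genes, with Il6 and Tnf too low to test. Il6 had 2 counts in each library. Of the 21 tested, 12 were higher and 9 lower (median 0.26, and between -0.00381 and 0.12 with any 1 library left out), and the quasi-likelihood test called 0. By sign, 51.7% of all tested genes were higher. The unadjusted p of the quasi-likelihood test was under 0.05 for 6 higher and 3 lower genes, against 8.91% and 9.85% of all tested genes. DESeq2 called 6 higher and 2 lower, against 3.93% and 4.94% of all tested genes. Stat3 stood at 259.8 ± 13.1 against 118 ± 3.21 CPM (log2 fold change 1.13, edgeR adjusted p = 0.133), Osmr, the oncostatin M receptor chain, had a log2 fold change of 1.57, and Socs3, the STAT3 feedback inhibitor, one of 1.66. Socs3 was 1.79-fold higher in replicate 1 than in replicate 2 of the gavage group, the same order as Saa1 and Saa2. Nfkbia, the NF-kB inhibitor, had a log2 fold change of -1.33 and Lifr, a receptor chain, one of -1.03. Cebpb, at -0.79, Cebpd, at 0.38, and Il1b, at 0.30, had overlapping groups. Cebpa (-0.36) and Hnf4a (-0.27), with the highest CPM of the list, are factors of hepatocyte identity.

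Relatives, partners and receptors of the 10 genes were listed as 16 genes, of which 15 were tested. Of these, 6 were higher and 9 lower, with a median of -0.25, where 51.7% of all tested genes were higher. The quasi-likelihood test called 0. Its unadjusted p was under 0.05 for 3 genes, all lower, where 9.85% of all tested genes were lower by that rule. DESeq2 called 3 genes, again all lower, where it called 4.94% of all tested genes as lower. Crp, Itih3 and Apoa1 also stand in an earlier list. Itih3, the neighbouring heavy chain gene, had a log2 fold change of 0.62. Cd163, the receptor that takes up haptoglobin with haemoglobin, stood at 40.3 ± 22.7 against 36.1 ± 6.74 CPM, with overlapping groups. Scarb1, a lipoprotein receptor that also binds serum amyloid A, had a log2 fold change of -0.97, and Tlr2 one of 0.30. Apoa1 and Apoa2, the main proteins of high-density lipoprotein, had log2 fold changes of -0.74 and -1.12. The groups of Apoa1 overlapped, with 12603 CPM in replicate 1 of ethanol alone and 4682 to 5829 CPM in the other libraries.

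**Figure D5:**
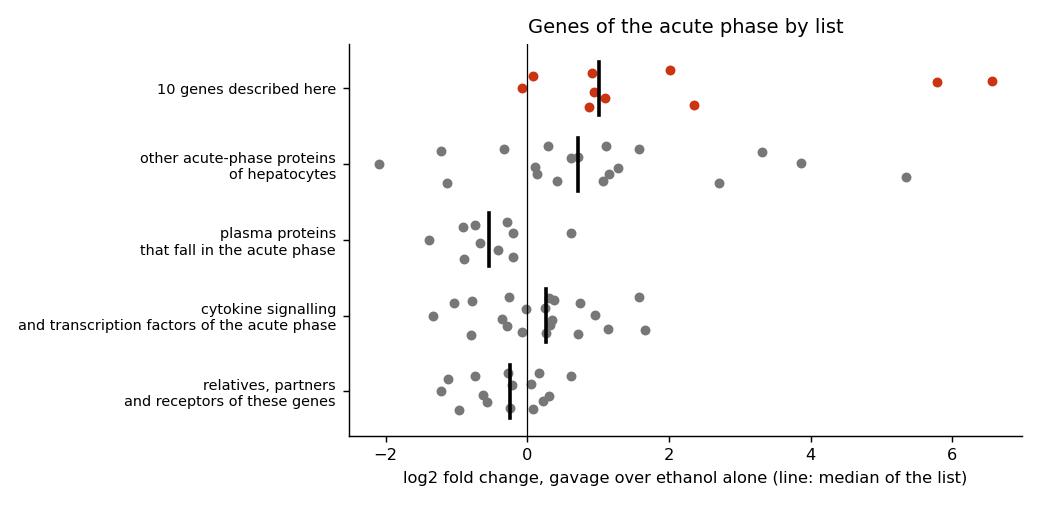
Log2 fold change, gavage over ethanol alone, of each tested gene in the 10 genes described here (red) and in 4 lists of related genes (grey), with a black line at each median. The medians run from 1.01 for the 10 genes and 0.72 for other acute-phase proteins to -0.54 for plasma proteins known to fall.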

How the data were processed

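Messenger RNA of mouse liver was measured in 4 libraries, 2 per group, grouped by title because the treatment text is the same for all. The table deposited by the authors holds raw counts, 1 whole number per symbol and library, and 0 rows lack a gene name. Per the submitters' processing notes, the tools were STAR 2.6.0a, bcl2fastq 2.20.0.422, edgeR and HTSeq, and the build was GRCm38. The sources used here do not give the annotation, the strand setting or how reads that fit several places were treated.

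Tests were run with edgeR 4.0.16 (R 4.3.3): filterByExpr by group (minimum count 10, minimum total 15), which left 13309 genes, TMM scaling, and the 2-sided quasi-likelihood test over all 4 libraries with no covariate, adjusted by Benjamini-Hochberg over all genes at 0.05. The SE was taken from F, as the absolute log2 fold change over its square root. The common dispersion was 0.0966. The libraries of a group differed by more than sampling noise (chi-square over its degrees of freedom 150 with ethanol alone, 165 with gavage). Fits were tested on simulated counts of 13309 genes for this comparison, where the quasi-likelihood test recovered 100 of 100 genes with a log2 fold change of 3, and 6 of 100 with one of 1. It made 7 false calls there and DESeq2 12. In the measured counts the quasi-likelihood test called 0 genes, although Saa1, Saa2 and Lcn2 had log2 fold changes of 5.78, 6.56 and 5.34. The recovery at 3 was thus not met in the measured counts. The simulated counts were drawn with the common dispersion for every gene. They therefore cannot show how often genes are recovered where the spread differs between genes. How far it does so in the measured counts was not tested. Alternatives were other scalings and filters, DESeq2 1.42.0, the likelihood-ratio test, limma-voom (limma 3.58.1), a replicate block and each library left out; DESeq2 without each library was added after seeing the data.

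Coordinates and transcripts came from GENCODE M21 (GRCm38), and promoters from RefSeq, matched by symbol for 8 of the 10 genes. Motifs were searched on both strands in the 250 bases before the start. The genes and lists were chosen with earlier results of these data known. All 10 genes are named. From each list the 2 genes of highest CPM are named and, for each direction, the 2 of smallest p, with 8 fixed genes. Gm and Rik models and pseudogenes were left out of the closest patterns, and only genes with a count in every library were searched.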

Additional observations from a re-analysis of the deposited data

How the results depend on the processing

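The count of 0 called genes became 1181 with DESeq2, 549 with the likelihood-ratio test and 410 with the replicate block, and ran from 0 to 31 in the quasi-likelihood test with 1 library left out. With DESeq2 and 1 library left out it was 377 without replicate 1 and 1294 without replicate 2 of ethanol alone, and 239 and 513 without replicates 1 and 2 of the gavage group. The cause was not tested. Of the 10 genes, 8 were called by DESeq2, which called 3.93% of all tested genes as higher. The likelihood-ratio test called 3 of the 10 (Saa1, Saa2 and Orm2) and 2.14% of all tested genes as higher. With the replicate block, 3 of the 10 were called (Saa1, Orm2 and Orm3), against 1.79% of all genes called as higher. From 0 to 2 were called with 1 library left out. With DESeq2, 4 and 7 were called without replicates 1 and 2 of ethanol alone, and 3 without either gavage library. Each fit with 1 library left out rests on a lone library in 1 group, so no conclusion is drawn from its count. The replicate numbers are not said to pair animals, but libraries of the same number deviated together over genes (correlation 0.587 across 13309 genes, which are not independent). The sum of Saa1 and Saa2 passed with DESeq2 (log2 fold change 6.12, adjusted p = 4.17e-05) and the likelihood-ratio test (6.12, adjusted p = 3.94e-05), and ran from 3.74 to 6.97 with 1 library left out, where it passed in edgeR without replicate 2 of the gavage group. The Orm sum passed with DESeq2 (0.92, adjusted p = 0.0129) and ran from 0.65 to 1.14 with 1 library left out. With DESeq2 the sum of Saa1 and Saa2 passed without replicate 2 of ethanol alone (6.55) or either gavage library (3.74 and 6.95), and the Orm sum without replicate 1 of ethanol alone (1.07) or replicate 2 of the gavage group (1.12).

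Saa3 turned sign without replicate 1 of ethanol alone (-0.11, and -0.10 with DESeq2) or of the gavage group (-0.52, and -0.53 with DESeq2), and ran from -0.52 to 0.51 with 1 library left out. Saa4 ran from -0.22 to 0.0115, turning sign without replicate 1 of the gavage group, and stood at 0.0112 there and at 0.00411 without replicate 1 of ethanol alone with DESeq2. The other 8 genes kept their direction in every alternative run. The list of plasma proteins known to fall had a median from -0.87 to -0.16 with 1 library left out, and the signalling list ran from -0.00381 without replicate 1 to 0.12 without replicate 2 of the gavage group. Words of 30 and 100 bases in place of 50 gave shared shares of 10.0% and 0% for the Saa genes and of 23.8% and 4.64% for the Orm genes. The other scalings and filters gave 0 calls, and moved the median of all genes by less than 0.1 (log2). Depth limits Saa3 and Orm3, with 97 to 208 and 37 to 415 counts.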
